A study of Mus musculus with 8 samples.

Results

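The 10 genes described here take part in blood clotting and in the removal of clots, and were measured in macrophages from the mouse peritoneal cavity (pMacs). They are the clotting initiators *F3* and *F7*, the prothrombinase genes *F10* and *F5*, the fibrin cross-linking gene *F13a1*, the thrombospondin gene *Thbs1*, the protein C receptor gene *Procr*, and *Plau*, *Plaur* and *Serpinb2*, which act in plasminogen activation. They were chosen by name for this shared role, and all 10 were found among the 48795 genes in the deposited files. Polyadenylated RNA was sequenced from the pMacs of 4 WT C57BL/6 mice and 4 CD1d-KO mice, at steady state and with 1 library per mouse. CD1d is a cell surface molecule that presents lipids to natural killer T (NKT) cells, and CD1d-KO mice lack it in every cell type and lack NKT cells as well. A difference between the genotypes may therefore lie in the macrophages or in the mice they came from, and these cannot be told apart. The cells were recovered by peritoneal lavage, and how they were purified for sequencing is not given in the sources used here. The labels do not give the allele, age or sex, and the study describes the mice as matched for age and sex and the sequenced controls as littermates. Libraries of both genotypes are numbered 1, 2, 3 and 5, and equal numbers were taken as pairs.

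In the tissue factor pathway, clotting starts when tissue factor, the product of *F3*, binds factor VII on a cell surface and activates factor X. Factor X then joins factor V to convert prothrombin to thrombin, thrombin makes fibrin, and factor XIII cross-links the fibrin. Urokinase, encoded by *Plau*, turns plasminogen into the fibrin-cutting enzyme plasmin, its receptor *Plaur* holds it at the cell surface, and *Serpinb2* encodes an inhibitor of it. Most clotting factors of plasma come from the liver, while resident peritoneal macrophages are known to make several of them, and clot formation in the peritoneal cavity takes part in holding bacteria in place.

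The targeted gene *Cd1d1* was checked first. It had 68.2, 175.2, 96.1 and 141.3 normalized counts (counts scaled to the mean library size) in WT replicates 1, 2, 3 and 5. It had 1.14, 0 and 1.10 in CD1d-KO replicates 2, 3 and 5. The library labelled CD1d-KO replicate 1 had 60.6. It thus went against its label, and the *Cd1d1* difference did not pass the quasi-likelihood test of edgeR over all 4 pairs (log2 fold change -3.42, adjusted p = 0.233). It passed in edgeR without replicate 1 (adjusted p = 6.85e-04) and in DESeq2 with all libraries (adjusted p = 0.00274). Log2 fold changes without replicate 1 are given for each of the 10 genes and for their median. Pair counts, overlaps, shares of variation, marker values and values of the wider list include this library. Total expected counts per library lay between 13698864 and 19059432. The 10 markers of large peritoneal macrophages summed to 4052 to 4920 TPM (transcript levels scaled for length and depth) in WT and 4599 to 5180 in CD1d-KO libraries. Most of this sum was *Prg4* (mean 3207 TPM over the 8 libraries). Of these 10 markers, 8 had higher and 2 lower fitted values in CD1d-KO in edgeR, with a median log2 fold change of 0.28. Markers of mesothelial cells (0.07 to 1.98 TPM in sum over all libraries), fibroblasts (0.17 to 0.76 TPM in WT and 0.80 to 4.25 in CD1d-KO) and T and NK cells (0.68 to 2.22 TPM) were near 0, and none of their genes passed the filter on low counts. B cell markers were present, from 54.0 to 160.8 TPM in WT and from 30.6 to 271.1 TPM in CD1d-KO libraries. None of the 73 markers of these and the other cell types looked at passed an adjusted p of 0.05 in edgeR, while 3 did in DESeq2 (*Pf4*, *Csf3r* and *Timd4*) and 8 in edgeR with no filter on low counts.

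All 10 genes were expressed in every library. Per length, *Thbs1* was far above the others, with 11309 ± 1882 TPM in WT (SD, n = 4 mice) and 12673 ± 2655 TPM in CD1d-KO pMacs (SD, n = 4). It encodes a secreted matrix protein that platelets also release. By its mean TPM in WT it ranked 10th of all genes, and it took 3.49% to 5.18% of all counts in WT and 3.54% to 5.88% in CD1d-KO libraries. *Serpinb2* (651 ± 557 TPM in WT) and *F10* (512 ± 119 TPM) came next, and their ranges over the WT libraries overlapped. *F5* (247 ± 23.2 TPM), *Plaur* (212 ± 41.9 TPM) and *Procr* (211 ± 37.4 TPM) were close together, and each range overlapped with that of the next. *F13a1* followed at 94.7 ± 22.1 TPM, with no overlap with *Procr* above it or *F7* below it in WT. *F7* (45.3 ± 8.26 TPM), *Plau* (43.7 ± 22.0 TPM) and *F3* (26.9 ± 2.81 TPM) were the lowest, again with overlapping ranges. The lowest of them was still above the median of all 13040 tested genes in WT, 11.9 TPM.

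**Figure D1:**
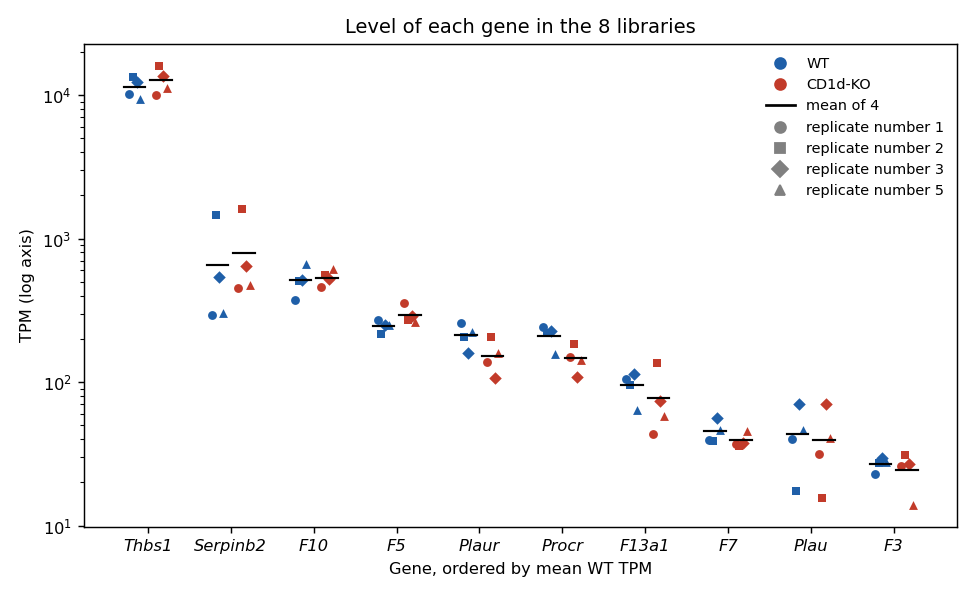
Level of each of the 10 genes in TPM on a log scale, in each of the 4 WT (blue) and 4 CD1d-KO (red) libraries. Each symbol is 1 library, its shape gives the replicate number and the black lines are means of 4 libraries, and the genes run from *Thbs1* at 9355 to 15931 TPM to *F3* at 14.0 to 31.1 TPM.

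The windows of 250 bases before the RefSeq transcription start (GRCm38.p6) were searched on both strands for 5 short motifs, as a description of sequence. The table of windows held 8 of the 10 genes, not *Thbs1* and *Plau*. The letters TGANTCA, to which the AP-1 factors bind, were in the windows of 4 of the 8 genes (*F3*, *Procr*, *Plaur* and *Serpinb2*) and in 6.75% of all 32851 windows. The GC box letters GGGCGG were in 3 of the 8 (32.7% of all windows), CCAAT in 3 (33.9%), TATAAA in 1 (12.4%) and AGATAA in 1 (9.99%). A gene was counted when any of its windows had the letters, and *F13a1* and *Serpinb2* have more than 1 window. Counts of genes and shares of windows are thus not in like units. The AGATAA match lies in another window of *Serpinb2*, not printed here. Windows of 3 of the 4 genes with TGANTCA are printed here, 5′ to 3′ on the plus strand, because these include genes with low and high levels and with opposite signs of the genotype difference. Capitals mark matches to any of the 5 motifs. The *F3* window is chr3:121723287-121723536, with TGANTCA at 146 and 135 bases before the start. The *Plaur* window is chr7:24462233-24462482, with TGANTCA 69 bases before the start and 3 GC boxes, of which the last 2 overlap. The *Serpinb2* window is chr1:107511173-107511422, with TGANTCA 94 bases and TATAAA 29 bases before the first of its starts. The *Procr* window is not printed, since its RefSeq start lies inside the gene as GENCODE places it.
F3: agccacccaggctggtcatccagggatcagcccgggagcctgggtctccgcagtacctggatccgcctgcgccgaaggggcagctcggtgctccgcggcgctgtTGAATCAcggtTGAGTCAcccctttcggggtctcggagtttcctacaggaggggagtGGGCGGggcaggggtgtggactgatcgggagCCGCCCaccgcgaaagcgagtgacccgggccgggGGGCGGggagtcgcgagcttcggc
Plaur: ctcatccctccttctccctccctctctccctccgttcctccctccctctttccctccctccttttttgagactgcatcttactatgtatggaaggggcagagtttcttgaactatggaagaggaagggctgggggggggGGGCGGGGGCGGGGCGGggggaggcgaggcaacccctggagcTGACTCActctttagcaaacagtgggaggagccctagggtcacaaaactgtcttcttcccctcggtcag
Serpinb2: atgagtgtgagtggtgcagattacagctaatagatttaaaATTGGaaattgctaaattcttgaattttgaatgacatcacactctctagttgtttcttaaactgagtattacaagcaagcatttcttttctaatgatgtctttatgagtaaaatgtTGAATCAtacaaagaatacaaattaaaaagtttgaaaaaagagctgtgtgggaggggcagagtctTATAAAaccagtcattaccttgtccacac

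The comparison of CD1d-KO with WT pMacs asks whether the loss of CD1d changes these transcripts in resting macrophages. None of the 10 genes passed the study's thresholds (a fold change above 1.5 at an adjusted p under 0.01) in edgeR, where 5 of the 13040 tested genes did (0.0383%). None had an adjusted p under 0.05 either, against 53 of all tested genes (0.406%), and the adjusted p of the 10 ran from 0.148 to 0.868. At an unadjusted p under 0.05 in edgeR, *Serpinb2* and *F5* had higher values in CD1d-KO (7.35% of all tested genes) and *Procr* and *Plaur* had lower ones (5.01%). The study applied its thresholds in DESeq2 and reported more genes past them than the main edgeR fit or DESeq2 called here. DESeq2, fitted here with the same terms as edgeR, called none of the 10 at the study's thresholds (0.989% of 10617 genes). It gave 3 of them an adjusted p under 0.05, namely *Procr*, *Plaur* and *Serpinb2* (2.89% of the 10617 genes), a rule looked at after the data were seen. The values of the genotypes overlapped for each of the 10 genes, while 1.04% of all tested genes had every CD1d-KO library above every WT library and 0.913% had every one below. The median log2 fold change was -0.17 over the 10 genes and 0.005 over all tested genes. That of the 10 genes was -0.111 without replicate 1 and -0.028 without replicate 5. The median size of the log2 fold change without sign was 0.23 over the 10 genes and 0.12 over all. In these bulk samples, fewer cells of a type and less RNA per cell cannot be told apart.

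**Figure D2:**
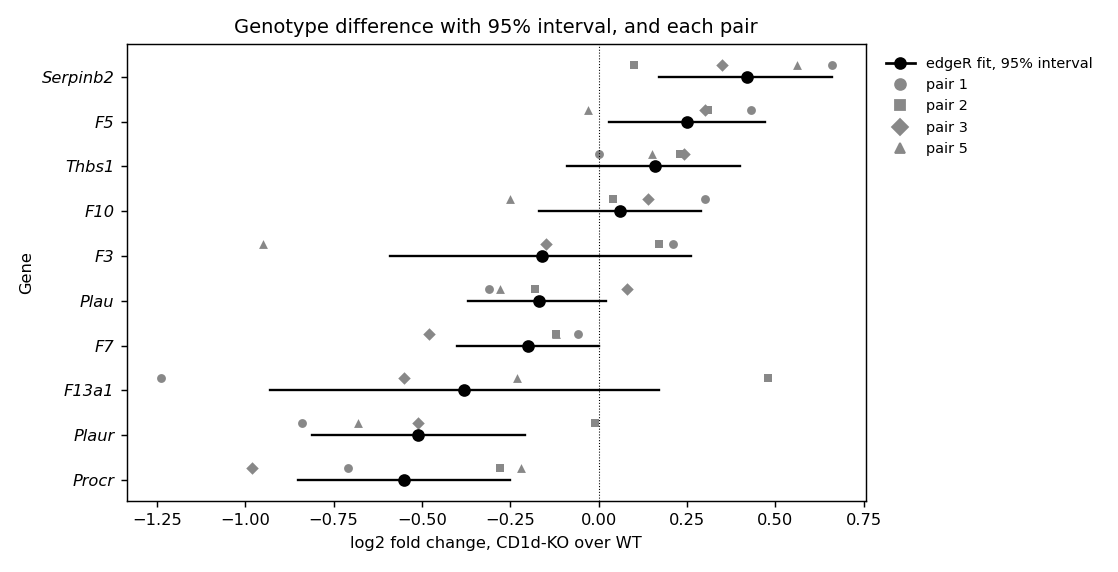
Log2 fold change (CD1d-KO over WT) of each gene from edgeR, with its 95% interval as a line, and the 4 single pairs as grey symbols. The intervals of *Serpinb2*, *F5*, *Plaur* and *Procr* do not reach 0, and *F13a1* has the widest spread of pairs, from -1.24 to 0.48.

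The initiators of clotting had small differences. *F3* (ENSMUSG00000028128; chr3:121723537-121735048), the gene of tissue factor, had 313.2, 457.8, 532.3 and 433.3 normalized counts in WT replicates 1, 2, 3 and 5. The CD1d-KO replicates in the same order had 363.2, 515.9, 478.1 and 223.1. Replicate 5 of CD1d-KO was the lowest of the 8 libraries, and the others overlapped. The log2 fold change of *F3* was -0.16 with a standard error (SE) of 0.18 (adjusted p = 0.776 from edgeR) and a 95% interval from -0.59 to 0.26. It was -0.29 without replicate 1 and 0.08 without replicate 5. *F7* (chr8:13026034-13035809), the gene of factor VII, had 605.5, 736.1, 1051 and 828.6 normalized counts in the WT libraries and 580.8, 677.2, 750.7 and 760.7 in CD1d-KO pMacs. The CD1d-KO library was the lower one in 4 of 4 pairs, as it was for 10.1% of all tested genes, and the gap was widest in pair 3. The fitted log2 fold change of *F7* was -0.20 (SE 0.09, adjusted p = 0.411 from edgeR), -0.24 without replicate 1 and -0.10 without replicate 3.

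*F10* (chr8:13037308-13056676), the gene of factor X, lies 1498 bases beyond *F7* on the same strand. It had 5573, 9603, 9074 and 11262 normalized counts in the WT libraries and 6853, 9886, 10012 and 9502 in CD1d-KO pMacs. Both replicate 1 libraries were low, and the other libraries of the genotypes overlapped. The log2 fold change was 0.06 (95% interval -0.17 to 0.29, adjusted p = 0.868 from edgeR) and -0.02 without replicate 1. Per length, *F10* exceeded its neighbour *F7* by 9.05 to 14.2 times in the WT and 12.4 to 15.4 times in the CD1d-KO libraries. *F5* (chr1:164151838-164220277) encodes factor V, the cofactor of activated factor X, and had 17261, 16995, 19208 and 18330 normalized counts in WT. In CD1d-KO replicates 1, 2, 3 and 5 it had 23250, 21083, 23686 and 17929. The values of CD1d-KO replicates 1, 2 and 3 were above all WT values and that of replicate 5 was within their range. *F5* had a log2 fold change of 0.25 (SE 0.10, adjusted p = 0.344 from edgeR), and 0.19 without replicate 1. It varied least of the 10 genes, with an SD of 0.189 in log2 CPM (counts scaled to a common depth) over the 8 libraries.

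*F13a1* (chr13:36867178-37050244), the gene of the catalytic subunit of factor XIII, had 3442, 3881, 4538 and 2421 normalized counts in WT. In the CD1d-KO libraries it had 1452, 5413, 3110 and 2062. CD1d-KO held both the lowest and the highest of the 8 values, in replicates 1 and 2. The log2 fold change was -0.38 with the largest standard error of the 10 genes, 0.24 (adjusted p = 0.568 from edgeR). It was -0.10 without replicate 1 and -0.67 without replicate 2, each again with an adjusted p above 0.05. Markers of small peritoneal macrophages and monocytes summed to 524 TPM in CD1d-KO replicate 2, the lowest of the libraries, and to between 888 and 1922 TPM in the others. Most of this sum was *Retnla*, *H2-Aa* and *H2-Eb1* (means of 445, 433 and 301 TPM over the 8 libraries). In normalized counts, *Retnla*, *Ccr2* and *Cd226* were lowest in WT replicate 1 and the other markers of this list in CD1d-KO replicate 2. The part of these markers in the values of *F13a1* was not tested.

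*Thbs1* (chr2:118111876-118127133) had 498776, 820592, 732179 and 534886 normalized counts in the WT libraries and 499512, 959256, 865982 and 595194 in CD1d-KO pMacs. Replicates 2 and 3 were high and replicates 1 and 5 low in both genotypes. CD1d-KO was the higher library in 4 of 4 pairs, as for 10.6% of all tested genes, and in pair 1 the log2 ratio was 0.00. The fitted log2 fold change of *Thbs1* was 0.16 (95% interval -0.09 to 0.40, adjusted p = 0.606 from edgeR), and 0.21 without replicate 1.

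*Procr* had the largest fitted difference of the 10 genes. It lies at chr2:155751117-155755471 and encodes the endothelial protein C receptor, which presents protein C for activation and so acts against clotting. It had 3080, 3424, 3507 and 2261 normalized counts in WT replicates 1, 2, 3 and 5, and 1880, 2813, 1781 and 1939 in CD1d-KO. The values of CD1d-KO replicates 1, 3 and 5 were below all WT values, while that of replicate 2 lay above WT replicate 5. The log2 fold change was -0.55 (SE 0.13, 95% interval -0.85 to -0.25, adjusted p = 0.148 from edgeR), and the CD1d-KO library was the lower one in 4 of 4 pairs. Its adjusted p was 0.00658 in DESeq2 with a log2 fold change of -0.55, which is below the fold threshold of 1.5. Without replicate 1 the log2 fold change was -0.49 (adjusted p = 0.403 from edgeR).

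The genes of plasminogen activation did not share a direction. *Plau* (chr14:20836660-20843385) had 787.5, 421.3, 1677 and 1049 normalized counts in the WT libraries and 633.8, 371.8, 1774 and 861.8 in CD1d-KO pMacs. In both genotypes replicate 3 was the highest and replicate 2 the lowest. The genotype difference of *Plau* was small beside this spread (log2 fold change -0.17, 95% interval -0.37 to 0.02, adjusted p = 0.455 from edgeR). Without replicate 1 the log2 fold change of *Plau* was -0.12.

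*Plaur* (chr7:24462484-24475968), the gene of the urokinase receptor, had 2976, 2961, 2275 and 3066 normalized counts in the WT libraries and 1659, 2939, 1601 and 1918 in CD1d-KO. CD1d-KO replicates 1, 3 and 5 were below every WT library, and CD1d-KO replicate 2 nearly equalled its WT partner. The log2 fold change of *Plaur* was -0.51 (SE 0.13, adjusted p = 0.169 from edgeR; adjusted p = 0.0159 from DESeq2). Pair 2 weighed on this value, since without it the log2 fold change was -0.67 (adjusted p = 0.0269 from edgeR), and without replicate 1 it was -0.40 (adjusted p = 0.441). The CD1d-KO library was the lower one in 4 of 4 pairs.

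*Serpinb2* (chr1:107511423-107535478), which encodes plasminogen activator inhibitor type 2 and is known as a transcript that inflammatory stimuli raise in macrophages, had 4791, 29836, 10730 and 5684 normalized counts in WT. It had 7551, 31934, 13673 and 8386 in CD1d-KO replicates 1, 2, 3 and 5. Replicate 2 was the highest in both genotypes, and in each pair the CD1d-KO library was above its WT partner. The log2 fold change was 0.42 (SE 0.11, 95% interval 0.17 to 0.66, adjusted p = 0.169 from edgeR; adjusted p = 0.0155 from DESeq2). Without replicate 1 it was 0.34 (adjusted p = 0.457 from edgeR), and without the replicate number in the model 0.27 (adjusted p = 0.997). The overlapping gene *Serpinb10* on the same strand had 0.507% of the counts of *Serpinb2*.

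Some genes listed as markers of other cells also had different values in the genotypes. Of the 9 markers of platelets and megakaryocytes, 5 passed the filter on low counts, with 2 higher and 3 lower. The summed TPM of the 9 overlapped between the genotypes, at 2372 to 3545 in WT and 1643 to 2924 in CD1d-KO. Nearly all of it was *Pf4* (log2 fold change -0.52, lower in 4 of 4 pairs, adjusted p = 0.0731 from edgeR and 2.44e-05 from DESeq2). The defining markers *Gp9* and *Tubb1* had at most 3 counts in any library. Of the 7 neutrophil markers, 2 were tested (*S100a8* and *Csf3r*) and both had higher values in CD1d-KO, with an adjusted p of 0.0189 from DESeq2 for *Csf3r*. The neutrophil sum was 117 to 174 TPM in WT and 186 to 216 in CD1d-KO, mostly *Csf3r* (mean 156 TPM over the 8 libraries). The untested ones were near the floor and did not share this direction. *Camp*, at most 6.45 normalized counts, was lower in CD1d-KO in 4 of 4 pairs (10.1% of all tested genes were). *S100a9* was at 0 in every CD1d-KO library and *Ly6g* at 0 in every library. The fibroblast marker sums, though low, also did not overlap between the genotypes, but only narrowly. The highest in WT was 0.76 TPM and the lowest in CD1d-KO was 0.80 TPM, both in replicate 2. The highest of all, 4.25 TPM, was in CD1d-KO replicate 1, the library whose *Cd1d1* went against its label. *Col1a1*, *Col1a2* and *Dcn* were higher in CD1d-KO in 4 of 4 pairs (10.6% of all tested genes were), *Col3a1* in 3 and *Pdgfra* in 2. In pair 2 these were near the floor, with 1.075 normalized counts of *Col1a1* in WT and 1.144 in CD1d-KO, and 0 and 1.144 of *Col1a2*. The adjusted p of *Col1a1* was 0.0107 from edgeR with no filter. Which cells these transcripts came from was not tested, nor was their part in the values of *Procr*, *Plaur* and *Serpinb2*.

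The replicate number accounted for more of the variation than the genotype in 7 of the 10 genes, as it did in 90.15% of all tested genes, and it has 3 degrees of freedom against 1 for the genotype. It held 97.7% of the sum of squares of log2 CPM over the 8 libraries for *Plau*, 94.0% for *Serpinb2*, 93.4% for *Thbs1* and 89.1% for *F10*, against a median of 64.8% over all tested genes. The genotype held 53.4% for *Procr*, 51.3% for *F5* and 46.1% for *Plaur*, against a median of 7.14%. In the F test of the replicate number terms of edgeR, which was added after the data were seen, 4 of the 10 genes had an adjusted p under 0.05, against 15.6% of all tested genes. These were *Plau* (adjusted p = 0.00161 from edgeR), *Serpinb2* (adjusted p = 0.00161), *Thbs1* (adjusted p = 0.0214) and *F10* (adjusted p = 0.0333). Between the highest and the lowest pair, the pair means differed 5.13-fold for *Serpinb2*, 4.34-fold for *Plau*, 1.78-fold for *Thbs1* and 1.67-fold for *F10*, against a median of 1.39-fold over all tested genes. What a replicate number stands for, such as a day or a litter, is not given in the sources used here.

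**Figure D3:**
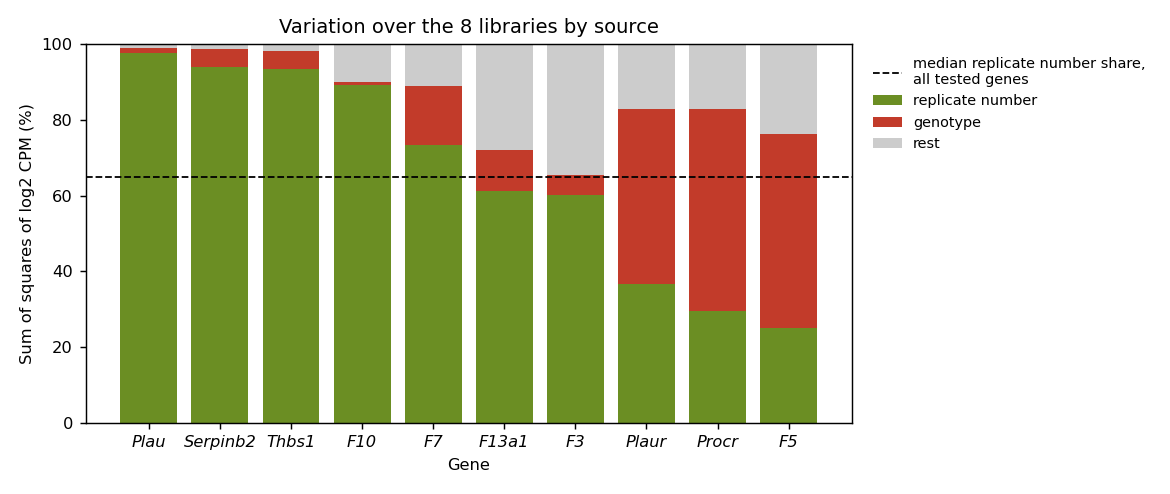
Share of the sum of squares of log2 CPM over the 8 libraries held by replicate number (green), genotype (red) and the rest (grey), as stacked bars for each gene. The dashed line is the median replicate number share of all tested genes, 64.8%, and *Plau*, *Serpinb2*, *Thbs1* and *F10* stand well above it.

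The ratio of the inhibitor transcript *Serpinb2* to the enzyme transcript *Plau* differed between the replicate numbers. Only RNA was measured in these libraries, not protein or enzyme activity. The ratio of *Serpinb2* to *Plau*, each in TPM, was 7.29, 84.5, 7.63 and 6.52 in WT replicates 1, 2, 3 and 5 and 14.2, 102.5, 9.19 and 11.6 in CD1d-KO. Replicate 2 stood apart in both genotypes, where *Serpinb2* was at its highest and *Plau* at its lowest. The ratio of *Plaur* to *Plau* in TPM was also highest there, at 11.9 and 13.3 against 1.52 to 6.44 in all others. Those libraries also had the lowest B cell marker sums, 54.0 TPM in WT and 30.6 TPM in CD1d-KO, against 92.1 to 271.1 TPM in the other libraries, and the part of this in the ratios was not tested.

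**Figure D4:**
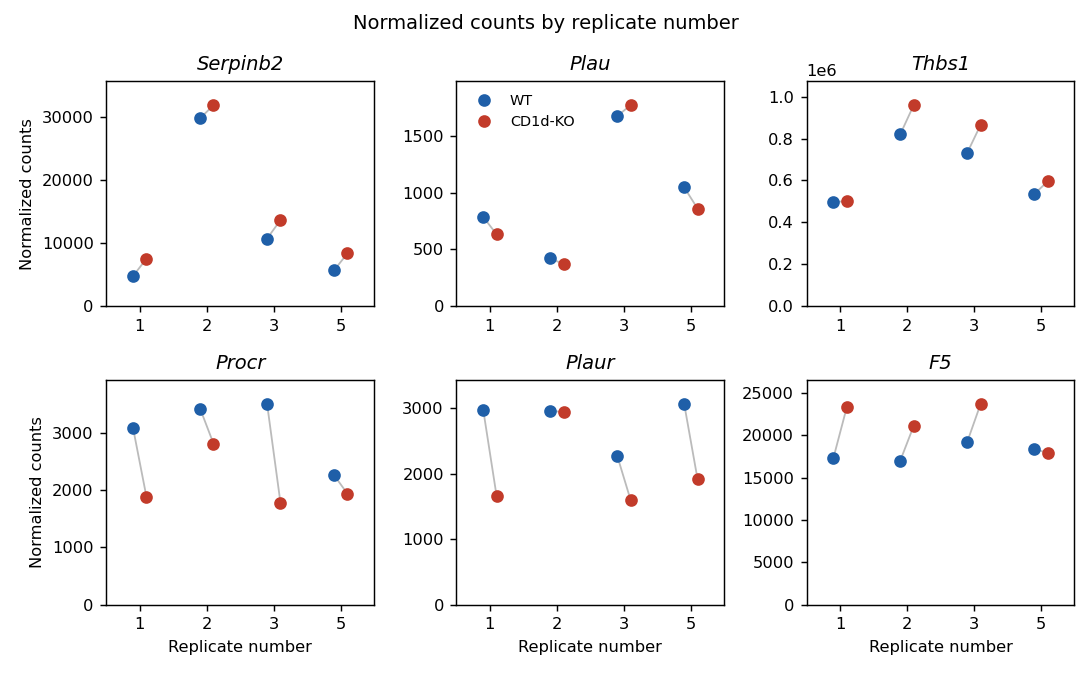
Normalized counts of 6 genes in each library by replicate number, WT in blue and CD1d-KO in red, with a line joining each pair. *Serpinb2*, *Plau* and *Thbs1* follow the replicate number in both genotypes. *Procr*, *Plaur* and *F5* differ between the libraries of a pair in 3 or 4 of the pairs. *Serpinb2* also differs within pairs, with log2 ratios of CD1d-KO to WT from 0.10 to 0.66, against -0.03 to 0.43 for *F5*. Those of *Thbs1* run from 0.00 to 0.24 and those of *Plau* from -0.31 to 0.08.

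For the 3 genes with the largest SD over the libraries, the tested genes with the most similar profile were found by the root mean square difference of log2 CPM centred on each gene's mean (8 libraries). For *Serpinb2* they were *Il1b* (0.46), *Socs3* (0.48) and *Ms4a4a* (0.48), against a median of 0.99 over all tested genes. *Il1b*, the gene of interleukin-1β, had 2720, 10078, 5253 and 5130 normalized counts in the WT libraries and 2698, 10284, 6135 and 3143 in CD1d-KO. Like *Serpinb2*, it was highest in both replicate 2 libraries. The nearest profiles to *Plau* were *Apbb2* (0.25), *Ambp* (0.31) and *Schip1* (0.31), with a median of 0.82, and those to *F13a1* were *Chst11* (0.25), *Dpysl3* (0.28) and *5830444B04Rik* (0.29), with a median of 0.65. *Apbb2*, *Ambp*, *Schip1* and *5830444B04Rik* were low, with at most 68.1, 28.8, 34.1 and 45.7 normalized counts in any library. *Chst11* and *Dpysl3* had at least 1631 and 451.9. The similar profiles are descriptions over libraries that share their replicate numbers and carry no test.

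A wider list of 48 genes of clotting, anticoagulation and fibrinolysis was counted in the same fit. Of these, 27 passed the filter on low counts, 16 with higher and 11 with lower fitted values in CD1d-KO, and their median log2 fold change was 0.01. None passed the study's thresholds or an adjusted p of 0.05 in edgeR. At an unadjusted p under 0.05 in edgeR, 3 genes were higher and 3 lower, as were 7.35% and 5.01% of all tested genes. All 5 genes of the vitamin K cycle and factor secretion were tested (median -0.05), among them *Ggcx*, the carboxylase that factors VII and X need. Of 13 other clotting factors, 8 had at most 3 counts in every library. Prothrombin (*F2*), *F12* and the fibrinogen genes *Fgb* and *Fgg* had a count of 0 in all 8, and so had plasminogen (*Plg*). Of 10 anticoagulant genes 6 were tested (median -0.06), of 12 fibrinolysis genes 7 (median 0.16, 6 higher and 1 lower) and of 8 receptors 6 (median 0.01).

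Receptors were among the most abundant genes of this list. The scavenger and thrombospondin receptor *Cd36* had a mean of 951 TPM over the 8 libraries (log2 fold change -0.40, adjusted p = 0.226 from edgeR). Every CD1d-KO library lay below every WT library for *Cd36*, as for 0.913% of all tested genes, and WT replicate 1 stood above the other WT libraries. By qPCR, the study found comparable *Cd36* mRNA in WT and CD1d-KO pMacs. The integrin genes *Itgb2* (766 TPM, log2 fold change 0.00) and *Itgam* (711 TPM, 0.08) encode the chains of a receptor that binds fibrinogen. The thrombospondin receptor *Cd47* had a mean of 252 TPM (log2 fold change 0.32, adjusted p = 0.235 from edgeR). Thrombomodulin (*Thbd*), which with *Procr* serves protein C activation, was low, with 2.91 ± 0.985 TPM in WT and 4.04 ± 1.45 in CD1d-KO (log2 fold change 0.46, adjusted p = 0.221 from edgeR). The tissue factor pathway inhibitor *Tfpi* had a log2 fold change of -0.07 (adjusted p = 0.929 from edgeR) and the tissue plasminogen activator gene *Plat* one of 0.28 (adjusted p = 0.821). *Anxa5*, the gene of a protein that covers the phosphatidylserine on which clotting factors assemble, was named after its values were seen. It had 2623 ± 445 normalized counts in the WT libraries and 1728 ± 354 in CD1d-KO (SD, n = 4 mice each). Every CD1d-KO library lay below every WT library for *Anxa5* too, as for 0.913% of all tested genes. The log2 fold change of *Anxa5* was -0.61 (SE 0.11, adjusted p = 0.0860 from edgeR), and it passed the thresholds in DESeq2 (adjusted p = 3.83e-04).

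**Figure D5:**
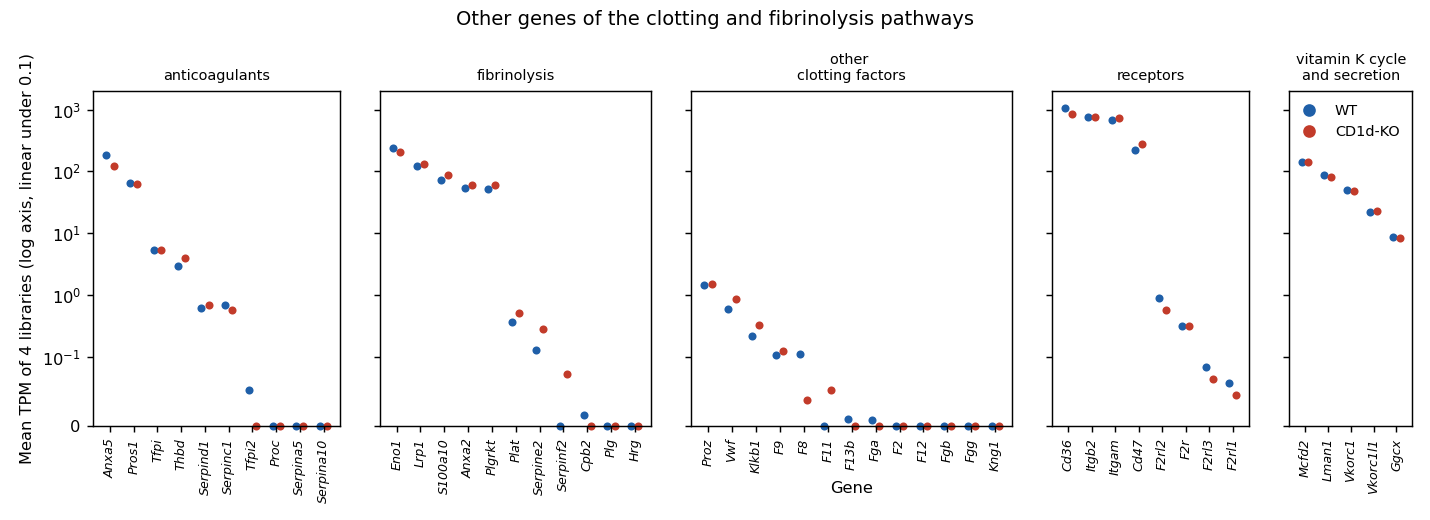
Mean TPM over the 4 WT (blue) and 4 CD1d-KO libraries (red) of 47 genes of the wider lists, on a log axis that is linear under 0.1 TPM, with 1 panel per list and genes ordered by level. *Cd36* is the highest at a mean of 951 TPM, and *F2*, *F12*, *Fgb*, *Fgg*, *Kng1* and *Plg* lie at 0 in both genotypes.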

How the data were processed

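RNA was sequenced from the pMacs of 4 WT and 4 CD1d-KO mice (polyA KAPA libraries, single-end reads). Per the labels and the study's methods, the authors trimmed reads with Cutadapt, aligned them with STAR 2.5.2a to GRCm38 and deposited, for each of 48795 genes, the expected count from RSEM 1.3.0, which is not normalized, and the deposited TPM, which is scaled by RSEM for length and depth. The strand setting is not given in the sources used here. Symbols and positions came from GENCODE (GRCm38) for 99.1% of gene IDs. RSEM divides reads among similar genes, so counts of overlapping genes depend on each other.

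Rounded counts were tested with edgeR 4.0.16 in R 4.3.3 (filterByExpr, TMM, quasi-likelihood test, replicate number and genotype in the model, p-values adjusted by Benjamini-Hochberg over 13040 genes). A call was an adjusted p under 0.01 with a fold change above 1.5, the study's thresholds. DESeq2 1.42.0, limma 3.58.1 on log2(TPM + 1), other filters and scalings, no replicate block and leaving out each replicate number were alternatives. The script that fits the models was tested on simulated data. Totals of 13698864 to 19059432 counts per library set the depth, and no libraries differed by as little as sampling noise (smallest chi-square per degree of freedom 14.6). Same-numbered libraries deviated together from their group means (correlations 0.487, 0.387, 0.505 and 0.207 for numbers 1, 2, 3 and 5, all above 0.1), so the numbers were used as pairs, although for number 5 the highest correlation with another number (0.220) was above its own. Motifs were counted on both strands of RefSeq windows.

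The genes, the lists and the tests were chosen with earlier results of these data known. Named are the 10 genes, the 5 genes of the wider lists with the highest mean TPM, any with an adjusted p under 0.05, *Thbd*, *Tfpi* and *Plat*, and the 3 most similar profiles of the 3 most variable genes. One further gene of the wider lists, counted in their totals, is not reported here.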

Additional observations from a re-analysis of the deposited data

Results flagged for a closer look

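In 10 of 76 groups of 4 libraries (the 38 tested genes looked at, in each genotype), 1 library stood apart from the other 3 by Dixon's criterion, which chance alone meets in about 1 of 20 groups. Among the 10 clotting and fibrinolysis genes, *F10* had 6853 normalized counts in CD1d-KO replicate 1, while the other CD1d-KO libraries had 9502 to 10012. *Procr* had 2813 in CD1d-KO replicate 2, against 1781 to 1939. *Plaur* had 2275 in WT replicate 3, against 2961 to 3066 in the other WT libraries.

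In the wider lists, *Vkorc1* had 368.9 normalized counts in WT replicate 3 against 279.4 to 287 in the other WT libraries, and *Vkorc1l1* had 931.4 in WT replicate 1 against 759.4 to 783.2. *Lman1* had 2680 in CD1d-KO replicate 2 against 2035 to 2127. *F2r* had 3.22 in WT replicate 2 against 11.6 to 12.7, *F2rl2* had 43.5 in WT replicate 1 against 10.8 to 13.2, and *Cd36* had 26088 in WT replicate 1 against 17886 to 19075. The targeted gene *Cd1d1* had 60.6 in the library labelled CD1d-KO replicate 1, while the other CD1d-KO libraries had 0 to 1.14.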

How the results depend on the processing

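The 10 genes had 100 log2 fold changes under 10 alternatives each, of which 98 kept their sign. The 2 exceptions were *F3*, from -0.29 without replicate 1 to 0.08 without replicate 5 (adjusted p = 0.887 from edgeR), and *F10*, from -0.02 without replicate 1 (adjusted p = 0.970 from edgeR) to 0.16 without replicate 5. The cause was not tested. None of the 10 was called under any of these alternatives, and 3 had an adjusted p under 0.05 in DESeq2 with no fold threshold, a rule added after seeing the data. With no filter on low counts, the adjusted p of edgeR was 0.00149 for *Procr*, 0.00294 for *Plaur* and 0.00976 for *Serpinb2*. The median log2 fold change of the 10 genes ran from -0.193 to -0.028 when each replicate number was left out, the latter without replicate 5. Genes with a difference between replicate numbers were 4 of the 10 in the main fit, against 15.6% of all tested genes. Under the alternatives they were 9 with no filter, 2 with limma on TPM, and 2 to 5 when each number was left out. They were 2 without replicate 1 and 2 without replicate 3. The share of all genes was not computed under these alternatives, so their counts are not a result about the 10 genes.

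Over all genes, 5 were called, against 105 by DESeq2, 236 with no filter, 3 with limma on TPM, 53 at an adjusted p under 0.05 alone and 307 by DESeq2 at that threshold (added). Leaving out each replicate number gave 3 to 22 calls, with 22 without replicate 2 and 3 without replicate 3 or 5. With the pairing ignored (no replicate block), 3 genes were called, 0 of them among the 10, and no call on the 10 changed. Of the wider lists 0 genes were called, against 1 in DESeq2 and 1 with no filter (*Anxa5* in both), and 2 at an adjusted p under 0.05 in DESeq2 (*Anxa5* and *Cd36*). With 4 pairs, differences of the size seen in *F13a1* are within the spread of the pairs.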
